A study of Mus musculus with 16 samples.

Results

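Whether a high-fat diet changed liver transcripts by the same amount in Gli2 heterozygous and wild-type mice was measured gene by gene as an interaction. It is the diet difference of the heterozygotes (high-fat minus control) minus that of the wild-type mice, on the log2 scale. An interaction above 0 means that the transcript moved upwards with the diet in heterozygotes relative to wild type. The members are all genes to which the array annotation gives a single symbol, 19938 of 19938, each represented by the probe set with the highest mean over the 16 arrays. Livers of adult mice came from 4 groups of 4 animals with 1 array each: wild type on control diet (WT_control), wild type on high-fat diet (WT_HFD), Gli2 heterozygous null on control diet (Het_control) and Gli2 heterozygous null on high-fat diet (Het_HFD), all kept 12 weeks on their diet. The genotype label of the wild-type samples reads Gli1_WT, whereas the series text names Gli2 only, and these samples are treated as wild type. No source used here gives age, sex or the part of Gli2 that is deleted. Whole liver was extracted, so a lower level through fewer cells of a type and one through less RNA per cell cannot be told apart. Levels are log2 values from 1 normalization over all arrays and are compared between arrays for 1 gene, never between genes.

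Hedgehog ligands act through the receptor Patched and the transducer Smoothened on the Gli transcription factors, of which Gli2 is the main activator and Gli1 a target gene. In the adult liver the pathway is low in healthy hepatocytes and is known for its activity in stellate cells, bile duct cells and injured liver. A high-fat diet loads hepatocytes with fat, and Kupffer cells, the resident macrophages of the liver sinusoids, take part in the inflammation that can follow.

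Genes that mark hepatocytes read a mean of 13.53 to 13.68 in every array, far above the arrays' medians of 8.26 to 8.40, which fits the labelled tissue. Het_control 2, the second heterozygous control array, differed from the others as a whole. Pearson's correlation over the genes ran from 0.961 to 0.979 between it and any other array, and from 0.990 to 0.997 between the other 15. Its values had an interquartile range of 1.95, where the others had 2.40 to 2.60. The main results are therefore also given without it. Of the 11 numbers in the sample titles, whose meaning is not stated, 5 were held by more than 1 array, none by both genotypes and 1 by both diets. Replicate numbers were given in accession order and do not pair animals. Every p measures the spread between animals and treats them as independent.

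No gene passed the test of the interaction at a limma adjusted p under 0.05 (0 of 19938, or 0%), with all 16 arrays or without Het_control 2. With array weights limma called 1 gene, Fabp7 (adjusted p = 0.00364), and with a random block for title numbers 2, Emp3 and Ms4a8a (both at adjusted p = 0.0433). The block correlation was -0.37, so that fit treated arrays with a shared title number as less alike than others. Its calls and counts depend on that negative value. Without weights or block the smallest adjusted p was 0.240, shared by 20 genes, and 0.188 without Het_control 2, shared by the epithelial membrane protein gene Emp3, the membrane protein gene Ms4a8a and the fatty acid binding protein gene Fabp7. At an unadjusted p under 0.05 there were 1621 genes (8.13%), 829 of them higher (4.16%) and 792 lower (3.97%). Without Het_control 2 there were 1709 (8.57%), with 897 higher (4.5%) and 812 lower (4.07%), and 1246 genes reached it with the same sign both ways. Of the fits that left out 1 array, the one without Het_control 4 gave the highest counts, 1434 higher and 1458 lower. The random block gave 1533 and 2175. Of the 100 genes with the smallest p, 73 had an interaction above 0, against 42.5% of all genes (47.9% without Het_control 2). The precision was limited: the median standard error (SE) of an interaction was 0.124, against 0.0874 for a diet difference in heterozygotes alone. For 19544 genes (98.0%) the 95% confidence interval nevertheless lay within 1 log2 unit of 0, and for 14816 (74.3%) within 0.5.

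The arrays also carried a shift that depended on brightness. Over all genes the median interaction was -0.03. It was 0.04 in the brighter part of the genes and -0.09 in the dimmer part, and these became 0.003 and -0.01 without Het_control 2. Values of these parts are given below beside the macrophage and endothelial lists and the lists with the lowest medians.

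**Figure D1:**
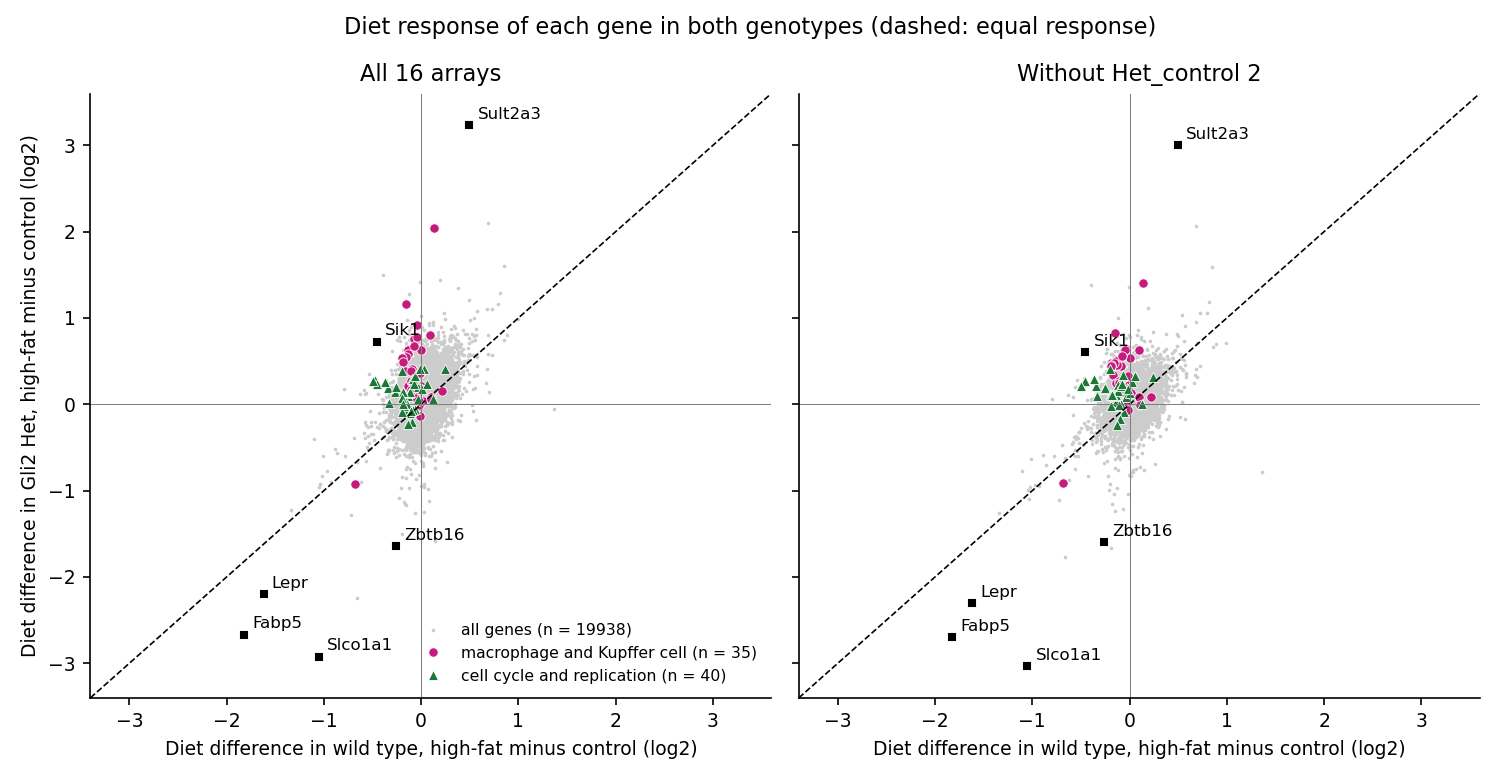
Diet differences (high-fat minus control, log2) of all 19938 genes, wild type on the horizontal axis and Gli2 heterozygotes on the vertical axis, with all 16 arrays on the left and without Het_control 2 on the right. Each grey point is a gene, circles are the 35 macrophage and Kupffer cell genes, triangles the 40 cell cycle genes and squares single named genes; the dashed line marks equal responses. Most circles and triangles lie above that line, Sult2a3 far above it and Slco1a1 and Zbtb16 below it.

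The interaction can come from either diet response or from both, and the 4 group means show which. Among the 829 higher genes, 429 (51.7%) had their diet difference mostly in heterozygotes, with a wild-type difference of at most 25% of the interaction. Another 307 (37.0%) moved in opposite directions in the genotypes and 54 (6.51%) mostly in wild type. Among the 792 lower genes these counts were 466 (58.8%), 271 (34.2%) and 29 (3.66%). Without Het_control 2 opposite directions became the most frequent pattern. It held for 436 of the 897 higher genes (48.6%) and 369 of the 812 lower genes (45.4%), while 311 (34.7%) and 322 (39.7%) moved mostly in heterozygotes. The heterozygous controls alone stood apart from the other 3 groups in 146 of the higher genes (17.6%) and 197 of the lower ones (24.9%), and without Het_control 2 in 44 (4.91%) and 96 (11.8%). The Het_HFD group alone stood apart in 25 of the higher (3.02%) and 9 of the lower genes (1.14%). Among all genes with an interaction above 0, the heterozygous controls alone stood apart in 10.2% and Het_HFD alone in 1.59%. Below 0 these shares were 15.8% and 0.951%. In 777 of the 829 higher genes (93.7%) the heterozygotes were below wild type on control diet and above it on high-fat diet. Only an interaction above 0 allows this order, which 3900 of the 8471 such genes held (19.6% of all genes). Choosing genes by the interaction favours such a crossing, so the share of 93.7% is a description. Among all genes with an interaction above 0, 1967 of 8471 (23.2%) were of the kind mostly in heterozygotes and 1268 in opposite directions, and among those below 0, 3502 of 11467 (30.5%) and 1409. Mostly in wild type were 7.76% of those above 0 and 5.07% of those below. The shares depend on the width of the class. With a difference of up to 40% of the interaction allowed in place of 25%, 70.8% of the higher and 78.8% of the lower genes counted as mostly in heterozygotes and 14.6% and 11.2% as opposite. The heterozygous controls alone then stood apart in 323 and 444 genes. A wider class takes in more of any set of genes. The shares of these classes over all genes were not counted at 40% or without Het_control 2.

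Few genes showed the crossing with no overlap between the diet groups in either genotype. In 10 genes (0.0502% of all) the 4 high-fat arrays lay above the 4 control arrays in heterozygotes and below them in wild type, and in 8 genes (0.0401%) the other way round. Without Het_control 2 these counts were 20 (0.1%) and 11 (0.0552%). The first group held Emp3, Themis2, Rgs2, Fam167a, Tgfb1, Cnr2, Vat1, Srgn, Prkcb and Cers5. Among these, Tgfb1 encodes a profibrotic cytokine, Srgn the proteoglycan of immune cell granules and Cnr2 a cannabinoid receptor of immune cells. Their interactions were 0.37 for Tgfb1, 0.95 for Srgn and 0.35 for Cnr2. All genes of this group except Emp3 and Themis2 are named here after their values were seen.

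Emp3, a small membrane protein, had the smallest p of all genes. Its level was 9.41, 9.42, 9.38 and 9.64 in WT_control and 9.35, 9.12, 9.28 and 9.05 in WT_HFD. In Het_control it was 9.02, 9.10, 9.11 and 9.12 and in Het_HFD 9.42, 9.54, 9.42 and 9.34. The wild-type high-fat arrays lay below all wild-type controls and the heterozygous high-fat arrays above all heterozygous controls. The interaction was 0.61 (SE 0.11, limma adjusted p = 0.240), and also 0.61 without Het_control 2. With the random block for title numbers, under its negative correlation, it was 0.64 and passed the threshold (adjusted p = 0.0433). Themis2, a signalling adaptor of B cells and macrophages, followed the same order. It read 9.05, 8.94, 8.96 and 9.06 in WT_control, 8.75, 8.69, 8.89 and 8.89 in WT_HFD, 8.74, 8.81, 8.81 and 8.59 in Het_control and 9.07, 9.496, 9.14 and 8.97 in Het_HFD. Neither genotype had overlapping diet groups, and the interaction was 0.63 (SE 0.13, limma adjusted p = 0.240), or 0.65 without Het_control 2.

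Sik1, a salt-inducible kinase, had one of the larger differences among these genes. It read 10.23, 10.001, 10.80 and 10.54 in WT_control and 9.82, 9.84, 9.92 and 10.16 in WT_HFD, against 10.39, 9.77, 9.99 and 10.42 in Het_control and 10.71, 11.01, 10.81 and 10.94 in Het_HFD. The heterozygous diet groups did not overlap, while WT_HFD 4 lay within the range of the wild-type controls. The interaction was 1.18 (SE 0.23, limma adjusted p = 0.240), a ratio of the 2 fold changes of 2.27, and 1.06 without Het_control 2.

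The opposite crossing was seen in Fam214a and in the myosin light chain kinase gene Mylk. Fam214a read 11.03, 10.83, 10.87 and 10.59 in WT_control, 11.28, 11.21, 11.19 and 11.26 in WT_HFD, 11.22, 11.21, 11.32 and 11.21 in Het_control and 11.05, 11.06, 11.20 and 11.13 in Het_HFD. The wild-type groups were clearly separate, and the heterozygous groups only just. Its interaction was -0.53 (SE 0.11, limma adjusted p = 0.240). For Mylk the 4 group means differed by little, and the interaction was -0.35 (SE 0.08, adjusted p = 0.242), or -0.33 without Het_control 2.

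**Figure D2:**
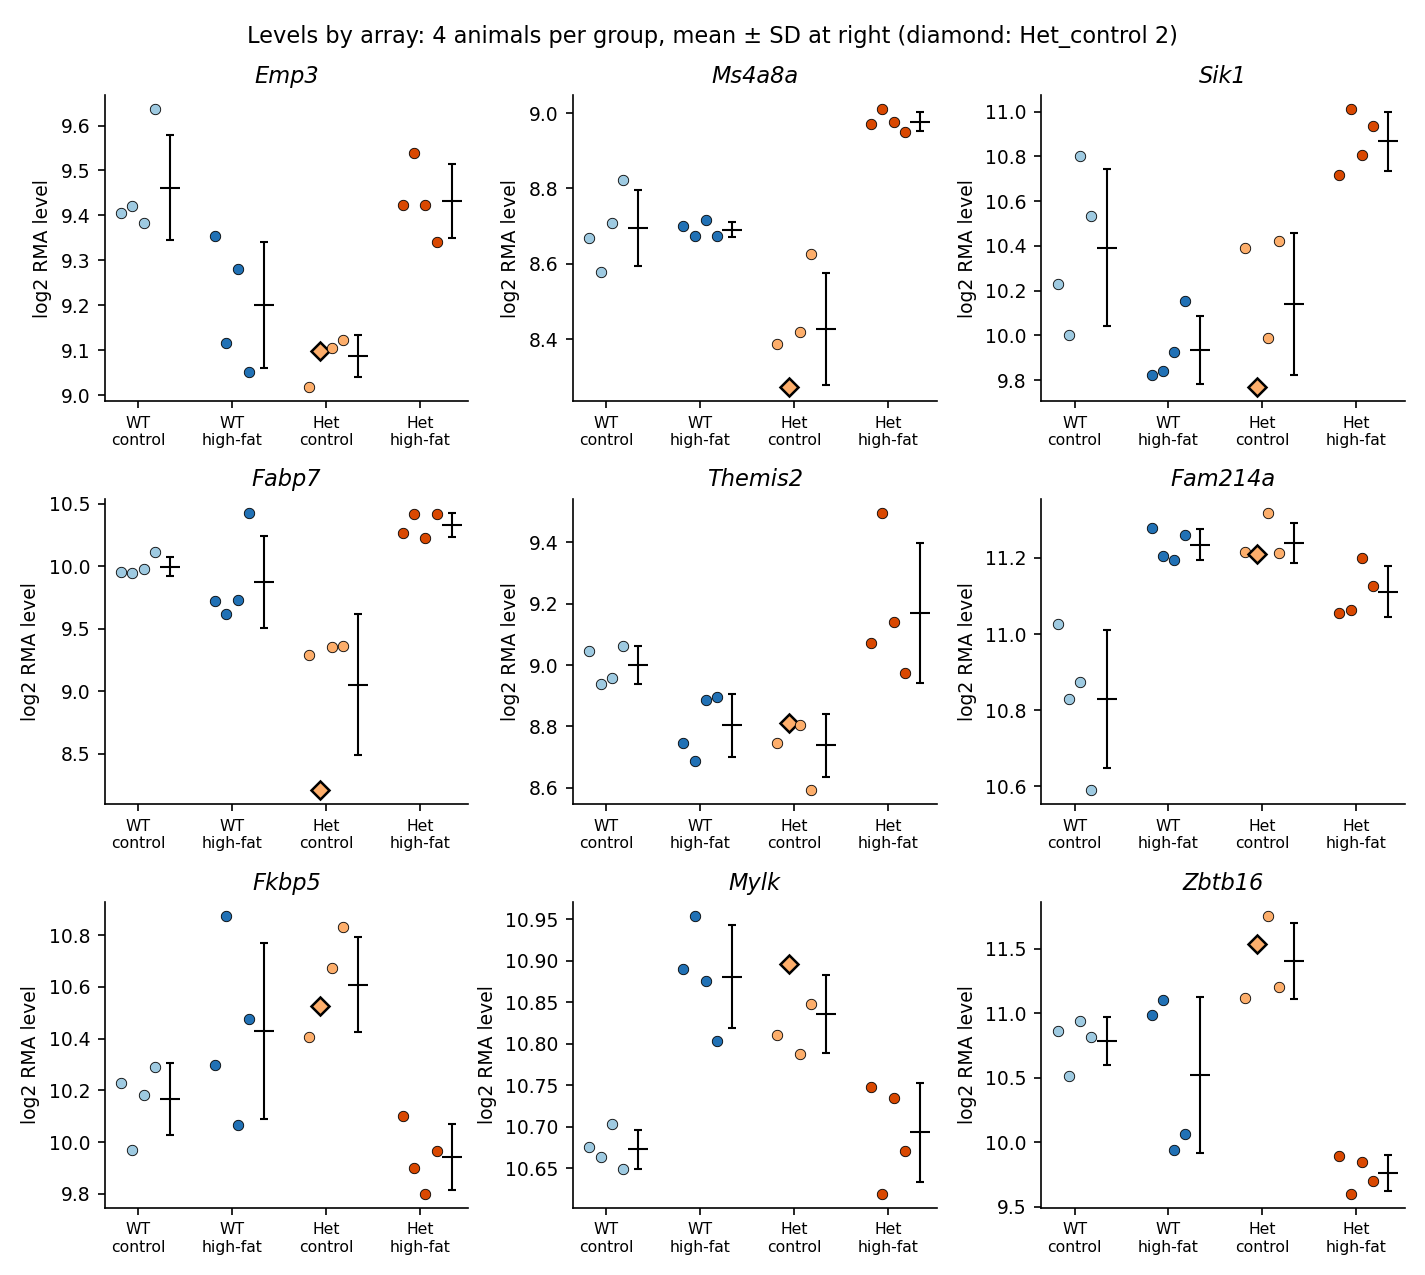
Log2 level of 9 genes in every array, by genotype and diet. Points are arrays, bars the mean and SD of 4, and the diamond marks Het_control 2; Emp3 and Themis2 are up in heterozygotes and down in wild type on high-fat diet, Fam214a and Mylk the reverse.

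In a further set the diet difference lay mostly in heterozygotes. Ms4a8a, a member of the MS4A family of membrane proteins, read 8.67, 8.58, 8.71 and 8.82 in WT_control and 8.70, 8.67, 8.71 and 8.67 in WT_HFD, 8.39, 8.27, 8.42 and 8.63 in Het_control and 8.97, 9.01, 8.98 and 8.95 in Het_HFD. All 4 Het_HFD arrays lay above the other 12, and the wild-type diet groups overlapped. The interaction was 0.55 (SE 0.10, limma adjusted p = 0.240), with a wild-type diet difference of -0.003. With the random block for title numbers, under its negative correlation, it was 0.58 and passed the threshold (adjusted p = 0.0433). Fabp7, a fatty acid binding protein, read 9.96, 9.95, 9.98 and 10.11 in WT_control, 9.73, 9.62, 9.73 and 10.42 in WT_HFD, 9.29, 8.21, 9.36 and 9.36 in Het_control and 10.27, 10.41, 10.23 and 10.41 in Het_HFD. The 4 heterozygous controls lay below the other 12 arrays, Het_control 2 furthest. The interaction was 1.40 (SE 0.30, adjusted p = 0.240), and 1.12 without that array. With array weights it was 1.23 and passed the threshold (adjusted p = 0.00364).

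Sult2a3, a sulfotransferase of steroids and bile acids, had the largest interaction among the genes with the smallest p. Its level was 9.32, 10.06, 11.05 and 9.43 in WT_control and 10.11, 9.64, 11.17 and 10.91 in WT_HFD, 7.76, 7.17, 8.99 and 7.51 in Het_control and 10.88, 10.72, 11.50 and 11.26 in Het_HFD. All heterozygous controls lay below the other 12 arrays, and wild-type diet groups overlapped. The diet fold was 9.40 in heterozygotes and 1.41 in wild type, and the interaction 2.74 (SE 0.58, limma adjusted p = 0.240), or 2.51 without Het_control 2. The oestrogen sulfotransferase gene Sult1e1 read 1.90 (SE 0.85, adjusted p = 0.600), from Het_HFD arrays as far apart as 5.36, 8.61, 8.999 and 6.77. Of 21 sulfotransferase and glutathione transferase genes measured, 3 were higher and 1 lower at an unadjusted p under 0.05. Without Het_control 2 there were 2 and 1. Over all genes the shares were 4.16% higher and 3.97% lower. The lower one, the sulfotransferase gene Sult3a1, read -1.30 (SE 0.47, adjusted p = 0.500).

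Ctse, the aspartic protease cathepsin E, was set apart by genotype rather than by diet in wild type. It read 7.30, 7.60, 7.38 and 7.57 in WT_control and 7.502, 7.57, 7.49 and 7.25 in WT_HFD. In Het_control it read 10.27, 9.06, 10.03 and 7.53, and in Het_HFD 10.10, 10.42, 10.82 and 11.23. Het_control 4 alone among the heterozygotes was at the wild-type level. Its interaction was 1.43 (SE 0.57, limma adjusted p = 0.558), and lay between 0.86 and 1.78 when 1 array was left out in turn.

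Among genes with a lower interaction, Fkbp5, a co-chaperone of the glucocorticoid receptor, read 10.23, 9.97, 10.18 and 10.29 in WT_control and 10.30, 10.87, 10.07 and 10.47 in WT_HFD. In heterozygotes it read 10.40, 10.53, 10.67 and 10.83 on control and 10.10, 9.90, 9.80 and 9.96 on high-fat diet. The heterozygous groups did not overlap and the wild-type groups did. The interaction was -0.93 (SE 0.19, limma adjusted p = 0.240), or -0.95 without Het_control 2. The zinc finger transcription factor gene Zbtb16 read 10.87, 10.51, 10.94 and 10.82 in WT_control, 10.99, 11.10, 9.94 and 10.06 in WT_HFD, 11.12, 11.54, 11.76 and 11.20 in Het_control and 9.90, 9.60, 9.85 and 9.70 in Het_HFD. Here WT_HFD 1 and 2 lay above every wild-type control and WT_HFD 3 and 4 below every one. The interaction was -1.38 (SE 0.31, adjusted p = 0.248), or -1.34 without Het_control 2. The rest of the 10 lower genes with the smallest p spanned -0.50 (Defb5, a defensin) to -0.36 (Hinfp, a histone gene transcription factor) and included Adamtsl2, a secreted matrix protein, at -0.49.

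That split among the wild-type high-fat arrays ran through many diet-responsive genes. WT_HFD 3 and 4 share title number 30, and WT_HFD 1 and 2 have other numbers. The 20 genes examined for it had been named earlier for their diet response in heterozygotes. In 16 of the 20, both WT_HFD 3 and 4 were further in the direction of the heterozygous response than both WT_HFD 1 and 2. Over all genes, these 2 arrays lay together on 1 side of the other 2, in either direction, in 7791 (39.1%).

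Slco1a1, an organic anion transporter of hepatocytes, shows the split. Its level was 10.02, 8.98, 8.61 and 9.06 in WT_control and 9.95, 9.39, 9.46 and 10.06 in Het_control. On high-fat diet it was 8.77, 9.94, 6.91 and 6.84 in wild type and 6.82, 7.06, 6.58 and 6.72 in heterozygotes. WT_HFD 3 and 4 lay among the heterozygous high-fat arrays, and WT_HFD 1 and 2 among the controls. The interaction was -1.87 (SE 0.71, limma adjusted p = 0.529) with all arrays, and -3.11 (SE 0.44, adjusted p = 0.0394) without the 2 arrays of title number 30.

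Leaving out those 2 arrays, a choice made after the values were seen, 3 genes passed the threshold (0.015% of all genes). Only WT_HFD 1 and 2 then remain in their group. For Zbtb16 and Slco1a1 the arrays left out were the wild-type high-fat arrays nearest to Het_HFD. Their removal was bound to enlarge these 2 interactions, so the passing of these genes is no separate evidence. Zbtb16 passed at -1.90 (SE 0.21, limma adjusted p = 0.00333), Slco1a1 as given above, and the myeloid receptor gene Treml4 at 0.97 (SE 0.14, adjusted p = 0.0394). Without any of the other 4 title numbers held by more than 1 array, 39, 42, 46 and 55, limma called 0 genes, with 1046, 1114, 1274 and 1368 genes at an unadjusted p under 0.05. The phosphatidate phosphatase gene Lpin1 read 12.46, 12.33, 11.53 and 11.75 in WT_HFD and 11.31, 11.53, 11.31 and 11.49 in Het_HFD, against 11.93, 12.24, 11.96 and 12.54 and 12.07, 12.38, 12.93 and 12.94 in the controls. Here too WT_HFD 3 and 4 lay below every wild-type control. Its interaction was -1.02 (SE 0.30, adjusted p = 0.395) and -1.39 without title number 30. What the title number stands for is not given, and its part in the results was not tested beyond these values.

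All 20 of the genes named earlier for their diet response in heterozygotes had an interaction of the same sign as that response, and 17 of 20 moved the same way in wild type. As the interaction holds the same heterozygous arrays, neither this sign nor the number with a small p is separate evidence. At an unadjusted p under 0.05 there were 14 (13 without Het_control 2). The share over all genes was 8.13%, and nothing is read from the excess, which the choice of the genes favours. The 6 that did not reach it were Saa2, Cyp3a16, Serpinb1a, Fabp5, Lepr and Hsd3b5. Of these, the leptin receptor gene Lepr read -2.20 in heterozygotes and -1.62 in wild type, with an interaction of -0.58 (95% interval -1.53 to 0.37). The fatty acid binding protein gene Fabp5 read -2.67 and -1.82, with an interaction of -0.85 (-2.07 to 0.37). These intervals hold both equal responses and a response that is larger by over 1 log2 unit in heterozygotes. The fatty acid translocase gene Cd36 read 1.44 in heterozygotes and 0.19 in wild type. Its interaction was 1.24 (SE 0.37, limma adjusted p = 0.3999), 0.92 without Het_control 2 and 1.65 without title number 30.

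Macrophage and Kupffer cell genes had the highest median interaction of the 34 gene lists examined, 0.49, or 0.39 without Het_control 2, against -0.03 and -0.006 over all genes. Of 35 genes measured, 30 were above 0. At an unadjusted p under 0.05, 20 were higher (4.16% of all genes were) and 0 lower, and the same counts held without Het_control 2. None passed the adjusted threshold. The median diet difference of the list was 0.39 in heterozygotes and -0.06 in wild type. Heterozygotes lay below wild type on control diet (median -0.28) and above it on high-fat diet (0.24). In 23 of the 35 the means crossed in that way, and in 27 without Het_control 2, against 19.6% and 24.1% of all genes. In the brighter part of all genes the median interaction was 0.04, and 6054 of 9969 were above 0. Of that part 6.29% were higher at an unadjusted p under 0.05, and 2918 genes crossed in that way.

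The mean level of the list was 9.54, 9.54, 9.48 and 9.61 in WT_control and 9.41, 9.29, 9.48 and 9.69 in WT_HFD. In Het_control it was 9.31, 9.08, 9.47 and 9.30 and in Het_HFD 9.67, 9.89, 9.64 and 9.56. Each heterozygous high-fat array lay above each heterozygous control, and Het_control 2 was the lowest of all. The wild-type diet groups overlapped, as WT_HFD 4 lay above all wild-type controls and WT_HFD 1 and 2 below them. Both WT_HFD 3 and 4 lay above both WT_HFD 1 and 2 in 23 of the 35 genes. Over all genes they lay together on 1 side, in either direction, in 39.1%. The share above alone was not counted, so nothing is read from the 23. With 1 array left out in turn the median ran from 0.39 (without Het_control 2) to 0.62 (without WT_HFD 4), and without title number 30 it was 0.64.

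**Figure D3:**
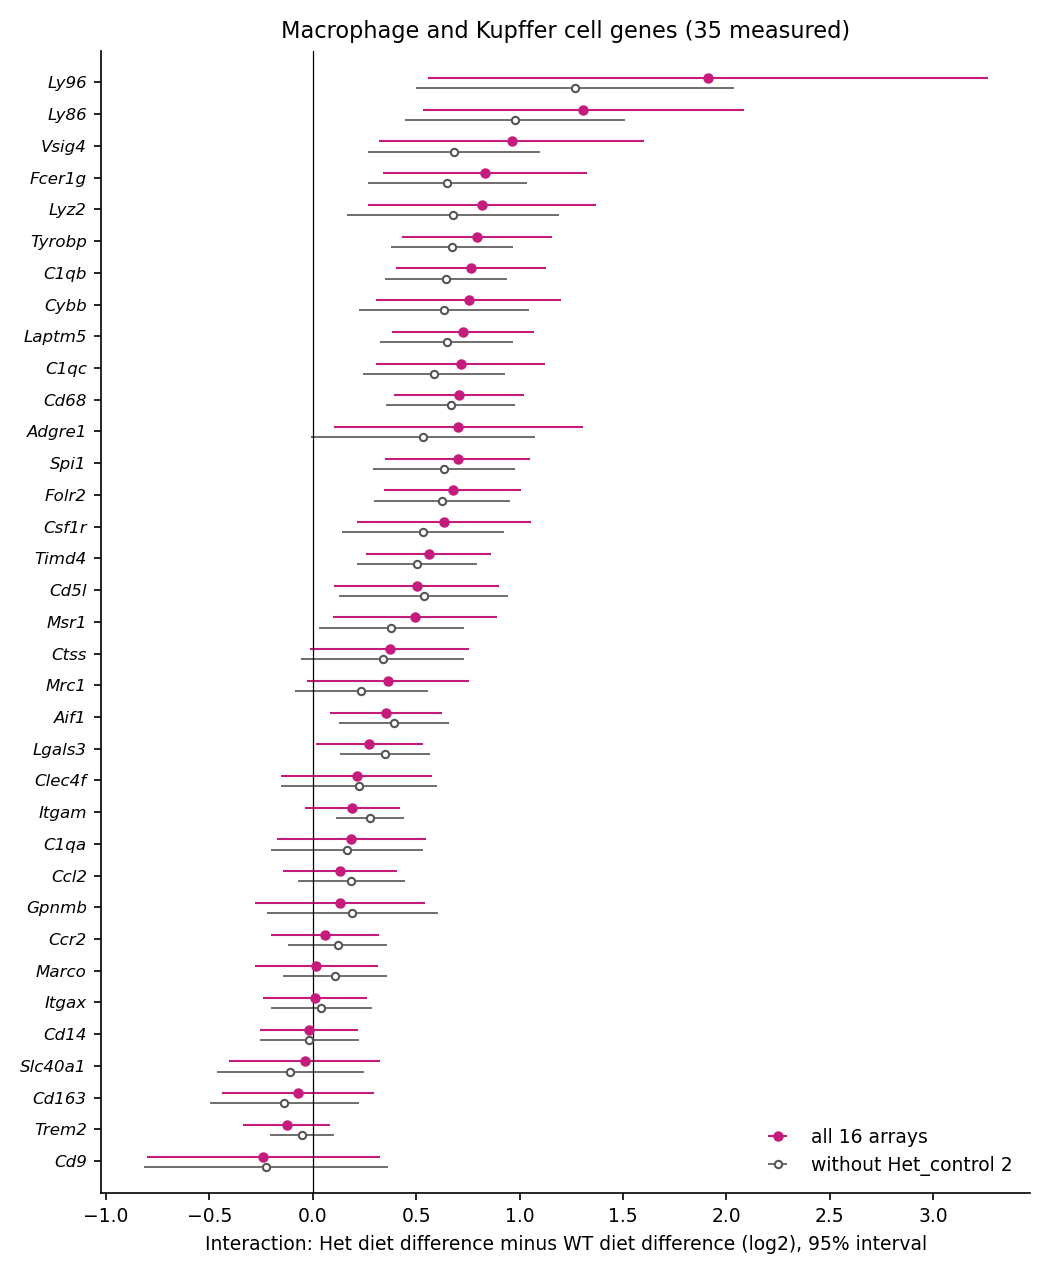
Interaction of each macrophage and Kupffer cell gene (log2) with its 95% confidence interval, with all 16 arrays (filled) and without Het_control 2 (open), in order of size. With all arrays, of 35 intervals, 20 lie above 0; the 4 recruited cell genes lie between 0.01 and 0.19 and the 4 lipid-associated genes between -0.24 and 0.27.

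The genes are described by role, in a grouping made after their values were seen, and no test compared the roles. The 4 signalling and transcription genes, all at an unadjusted p under 0.05, are the growth factor receptor Csf1r (0.63), the lineage transcription factor Spi1, also called PU.1 (0.70), and the adaptors Tyrobp (0.79) and Fcer1g (0.83). Tyrobp read 10.05, 10.14, 9.96 and 10.21 in WT_control, 10.02, 9.94, 10.09 and 10.09 in WT_HFD, 9.72, 9.34, 9.99 and 9.75 in Het_control and 10.31, 10.77, 10.40 and 10.27 in Het_HFD. All Het_HFD arrays lay above the other 12, Het_HFD 2 highest, and the wild-type groups overlapped. Its interaction was 0.79 (SE 0.17, limma adjusted p = 0.240), or 0.67 without Het_control 2.

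Among lysosomal and phagocyte proteins 4 of 5 reached it, all except the protease Ctss (0.37). Cd68, a lysosomal glycoprotein of macrophages, read 10.10, 10.01, 9.95 and 10.17 in WT_control and 9.80, 9.66, 9.94 and 10.08 in WT_HFD. In Het_control it read 9.60, 9.55, 9.89 and 9.68 and in Het_HFD 10.07, 10.48, 10.19 and 10.07. The heterozygous groups did not overlap, and the wild-type groups did. Its interaction was 0.71 (SE 0.15, limma adjusted p = 0.240), or 0.67 without Het_control 2. The lysosomal membrane protein gene Laptm5 read 0.73, the lysozyme gene Lyz2 0.82 and Cybb, of the phagocyte oxidase, 0.75.

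Of 8 markers of resident Kupffer cells 4 reached an unadjusted p under 0.05: the complement receptor Vsig4 (0.96), the folate receptor Folr2 (0.68), the phosphatidylserine receptor Timd4 (0.56) and Cd5l (0.50). The lectin Clec4f, which marks Kupffer cells most narrowly, read 0.21 (SE 0.17), and Marco, Cd163 and Slc40a1 lay between -0.07 and 0.02. Vsig4 read 11.77, 11.57, 11.69 and 11.71 in WT_control, 11.49, 11.26, 11.70 and 12.13 in WT_HFD, 11.10, 10.19, 11.51 and 11.33 in Het_control and 11.99, 12.06, 11.84 and 11.92 in Het_HFD. WT_HFD 4 was the highest array of all, so the high value on that diet was not held by heterozygotes alone. Without Het_control 2 the Vsig4 interaction was 0.68.

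The complement C1q chains read 0.77 for C1qb, 0.72 for C1qc and 0.19 for C1qa, with the first 2 at an unadjusted p under 0.05. C1qb read 11.40, 11.26, 11.19 and 11.46 in WT_control, 11.17, 10.996, 11.35 and 11.24 in WT_HFD, 11.003, 10.61, 11.23 and 11.06 in Het_control and 11.74, 11.76, 11.56 and 11.36 in Het_HFD. Of the lipopolysaccharide sensing genes, Ly96, the co-receptor of Tlr4, read 9.40, 9.40, 9.59 and 9.62 in WT_control and 9.90, 9.30, 9.59 and 9.76 in WT_HFD. It read 8.0, 6.19, 8.47 and 9.77 in Het_control and 10.11, 10.29, 10.02 and 10.18 in Het_HFD. The heterozygous controls spread over more than 3 log2 units, and the interaction was 1.91 (SE 0.64, limma adjusted p = 0.460), or 1.27 without Het_control 2. Its relative Ly86 read 1.31 (SE 0.37, adjusted p = 0.380) and 0.98, while Cd14 read -0.02.

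Of 4 further pan-macrophage genes 3 reached an unadjusted p under 0.05, the adhesion receptor Adgre1 (0.70), the scavenger receptor Msr1 (0.49) and Aif1 (0.35), and 2 did without Het_control 2, when Adgre1 read 0.53. Genes of recruited monocyte-derived cells (the integrins Itgam and Itgax, the chemokine receptor Ccr2 and its ligand Ccl2) lay between 0.01 and 0.19, with 0 of 4 at an unadjusted p under 0.05 and 1 without Het_control 2. Those of lipid-associated macrophages reached it in 1 of 4. The galectin gene Lgals3 read 0.27, Gpnmb 0.13, Trem2 -0.13 and the tetraspanin gene Cd9 -0.24.

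**Figure D4:**
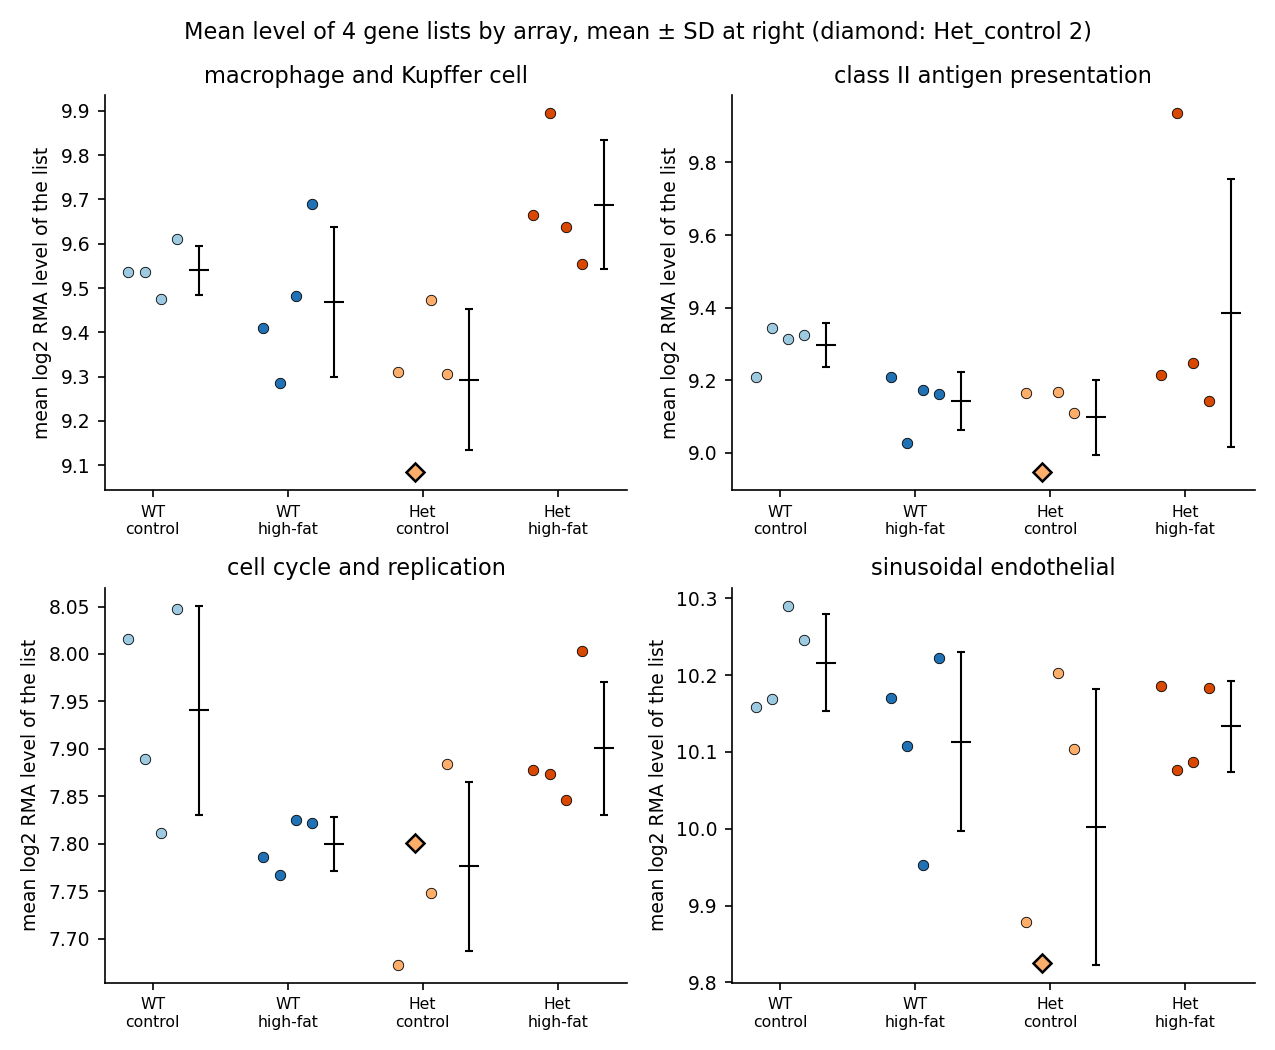
Mean log2 level of 4 gene lists in every array, by genotype and diet; bars are the mean and SD of 4 arrays and the diamond marks Het_control 2. The macrophage list runs from 9.08 to 9.89, and 1 array, Het_HFD 2 at 9.94, stands above the rest in the class II list.

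Class II antigen presentation genes, which load and display peptides on macrophages, dendritic cells and B cells, were above 0 in 8 of 8, with a median of 0.41 (0.36 without Het_control 2). At an unadjusted p under 0.05, 3 were higher with either set of arrays, against 4.16% and 4.5% of all genes. The height of the class II genes in heterozygotes rested in part on 1 array. The peptide-loading gene H2-DMa read 8.83, 8.52, 8.56 and 8.69 in Het_control and 9.10, 9.87, 9.07 and 9.05 in Het_HFD, against 8.89, 8.95, 9.08 and 9.17 in WT_control and 8.83, 8.70, 8.91 and 8.89 in WT_HFD. Het_HFD 2 lay far above its group, although the heterozygous diet groups did not overlap. Its interaction was 0.81 (SE 0.20, limma adjusted p = 0.313), and 0.61 was the lowest value with 1 array left out. The invariant chain gene Cd74 read 0.77 (SE 0.27, adjusted p = 0.490). The list's median was 0.21 without Het_HFD 2.

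Of the B cell genes, Cd79a, a signalling chain of the B cell receptor, had more of its difference in wild type. It read 7.21, 7.11, 6.81 and 7.07 in WT_control and 6.64, 6.37, 6.61 and 6.70 in WT_HFD, but 6.88, 6.92, 6.53 and 6.71 in Het_control and 7.11, 7.05, 7.07 and 6.82 in Het_HFD. The wild-type diet groups did not overlap and the heterozygous groups did. The interaction was 0.72 (SE 0.15, limma adjusted p = 0.240), or 0.77 without Het_control 2. Cd72, a co-receptor of B cells, read 8.66, 8.57, 8.71 and 8.69 in WT_control, 8.51, 8.33, 8.62 and 8.66 in WT_HFD, 8.26, 8.15, 8.49 and 8.37 in Het_control and 8.76, 9.07, 8.84 and 8.73 in Het_HFD. Here the heterozygous groups were separate, and the wild-type groups overlapped. Its interaction was 0.66 (SE 0.13, adjusted p = 0.240). Treml4 read 0.78 (SE 0.16, adjusted p = 0.240).

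Promoters of the myeloid genes were searched for the PU.1 core motif GAGGAAGT on both strands, because Spi1 is itself among the members. The windows, from RefSeq in build GRCm38.p6, run from 250 bases before to 50 bases after a gene's start. The motif was in 2 of 26 windows of 25 macrophage genes (7.69%), those of C1qc and Ctss, against 3.20% of all 32851 windows. Of the other named genes it was in the windows of Cd72 (interaction 0.66), Fam214a (-0.53) and the neutrophil gene Ly6g (-0.28). The GLI motif GACCACCCA was searched in the same way. It was in 0 of 54 windows of named genes, 0 of 26 of macrophage genes and 0 of 35 of cell cycle genes. Among genes at an unadjusted p under 0.05 it was in 2 of 865 windows of the higher and 1 of 707 of the lower ones (0.231% and 0.141%). Of all windows 0.253% held it. A match is a description of the letters only. The windows of Cd72 at chr4:43454577-43454876 on the minus strand and C1qc at chr4:136892865-136893164 on the minus strand are shown as the examples with a match, 5′ to 3′ along the gene, with the motif, here on the reverse strand as ACTTCCTC, in capitals.
Cd72: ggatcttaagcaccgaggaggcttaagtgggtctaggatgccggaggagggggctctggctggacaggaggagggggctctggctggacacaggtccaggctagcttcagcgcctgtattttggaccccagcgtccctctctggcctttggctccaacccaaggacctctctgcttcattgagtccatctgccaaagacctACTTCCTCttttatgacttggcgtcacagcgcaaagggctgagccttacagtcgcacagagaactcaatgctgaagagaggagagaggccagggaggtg
C1qc: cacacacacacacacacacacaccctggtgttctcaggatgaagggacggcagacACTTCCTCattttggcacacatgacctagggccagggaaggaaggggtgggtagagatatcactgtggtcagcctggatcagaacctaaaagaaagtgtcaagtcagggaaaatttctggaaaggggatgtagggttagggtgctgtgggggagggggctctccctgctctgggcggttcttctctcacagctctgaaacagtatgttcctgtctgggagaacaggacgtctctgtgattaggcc

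Cell cycle and replication genes formed the other large group, and here the wild-type response took part. Of 40 measured, 37 were above 0 and the median was 0.24 (0.26 without Het_control 2). At an unadjusted p under 0.05, 18 were higher (20 without Het_control 2) and 0 lower, against 4.16% and 4.5% of all genes. The median diet difference was 0.14 in heterozygotes and -0.12 in wild type. The list's mean level was 8.02, 7.89, 7.81 and 8.05 in WT_control and 7.79, 7.77, 7.82 and 7.82 in WT_HFD. It was 7.67, 7.80, 7.75 and 7.88 in Het_control and 7.88, 7.87, 7.85 and 8.003 in Het_HFD. The wild-type controls were spread most widely, WT_control 3 lying next to the high-fat arrays. The count at an unadjusted p under 0.05 fell to 11 without Het_control 1, without Het_HFD 4 or without title number 46.

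The pair with the smallest p, Plk1 and Ccnb2, act in mitosis. The polo-like kinase gene Plk1 read 7.74, 7.57, 7.27 and 7.89 in WT_control, 7.37, 7.22, 7.24 and 7.16 in WT_HFD, 7.20, 7.36, 7.12 and 7.42 in Het_control and 7.53, 7.52, 7.51 and 7.58 in Het_HFD. The heterozygous groups did not overlap, and WT_control 3 lay within the range of WT_HFD. The interaction was 0.63 (SE 0.15, limma adjusted p = 0.280), or 0.66 without Het_control 2. The cyclin gene Ccnb2 read 8.60, 8.51, 8.24 and 8.98 in WT_control, 8.18, 8.13, 8.10 and 7.94 in WT_HFD, 7.93, 7.87, 8.08 and 8.25 in Het_control and 8.12, 8.28, 8.17 and 8.63 in Het_HFD. In this gene it was the wild-type groups that did not overlap. Its interaction was 0.76 (SE 0.19, adjusted p = 0.321), or 0.71 without Het_control 2. The proliferation marker Mki67 read 0.75, the cyclin gene Ccna2 0.69 and the kinase gene Cdk1 0.54. Of the replication licensing genes, those of the Mcm family read from 0.18 (Mcm7) to 0.40 (Mcm6), with Mcm5 at 0.31. Cdt1 lay below that range, and Cdc6, at -0.11, was the lowest of the whole list. Of the other mitotic genes, the spindle kinase gene Aurka read 0.01 and Birc5, of the chromosomal passenger complex, 0.02. The second probe set of Top2a, a topoisomerase, read 0.08 where the one used read 0.41.

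Their promoters were searched for motifs as well. A CCAAT box together with a cell cycle homology region (TTTGAA), each on either strand, was in 16 of 35 windows of 33 cell cycle genes (45.7%), against 6.95% of all 32851 windows. In the windows of the 829 genes with a higher interaction the share was 7.17%. The list was chosen by function, so its share describes cell cycle genes and not the interaction. The windows of Plk1 at chr7:122159185-122159484 on the plus strand and Ccnb2 at chr9:70421505-70421804 on the minus strand, the pair with the smallest p, are shown from RefSeq, 5′ to 3′ along the gene, with both motifs in capitals. Counted from 1 at the 5′ end, the CCAAT box of Plk1 begins at 237 and the homology region at 281. Ccnb2 has CCAAT boxes at 164, 197 and 230 and homology regions at 84 and 255.
Plk1: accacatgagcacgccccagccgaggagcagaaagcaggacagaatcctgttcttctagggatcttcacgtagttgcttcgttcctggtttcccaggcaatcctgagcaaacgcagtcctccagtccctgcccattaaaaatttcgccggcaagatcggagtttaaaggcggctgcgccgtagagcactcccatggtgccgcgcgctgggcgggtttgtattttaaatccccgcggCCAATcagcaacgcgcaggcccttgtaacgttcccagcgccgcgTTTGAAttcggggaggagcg
Ccnb2: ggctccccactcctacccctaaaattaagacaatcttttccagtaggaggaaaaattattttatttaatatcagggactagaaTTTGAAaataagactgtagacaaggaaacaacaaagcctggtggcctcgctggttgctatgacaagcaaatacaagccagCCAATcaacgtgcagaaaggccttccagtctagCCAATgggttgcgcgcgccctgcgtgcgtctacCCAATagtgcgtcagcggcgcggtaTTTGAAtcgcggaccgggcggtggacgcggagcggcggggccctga

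Sinusoidal endothelial genes, of the cells that line the sinusoids beside Kupffer cells, had a median interaction of 0.21 (0.16 without Het_control 2), with 22 of 25 above 0. In the brighter part of all genes, 6054 of 9969 were above 0 and 6.29% were higher at an unadjusted p under 0.05. Over all genes 4.16% were higher. In this list 6 were higher at that p both ways and 0 lower. They were the cadherin Cdh5 (0.48, SE 0.15), the Fc receptor Fcgr2b (0.50), the lectin Clec4g (0.59), the receptors Kdr (0.36) and Flt4 (0.42) of vascular endothelial growth factors, and the angiopoietin receptor Tek (0.43). Cdh5 read 10.53, 10.54, 10.54 and 10.61 in WT_control, 10.42, 10.30, 10.28 and 10.40 in WT_HFD, 10.13, 9.82, 10.51 and 10.41 in Het_control and 10.52, 10.55, 10.44 and 10.49 in Het_HFD. Het_control 1 and 2 were low, and the heterozygous groups overlapped. Its adjusted p in limma was 0.424. The scavenger receptor genes Stab1 (0.02) and Stab2 (0.01) and Lyve1 (0.21), the defining markers of these cells, did not reach an unadjusted p under 0.05. A second, dimmer probe set of Clec4g read -0.16. The endothelial and macrophage lists share Mrc1.

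At the other end, the lists with the lowest medians were gallbladder and gut (-0.10), growth hormone and Stat5 (-0.09), pancreas (-0.09) and neutrophil genes (-0.07). The gallbladder, pancreas and neutrophil lists were dim, with group means of 7.20 to 7.83, and the median of the dimmer part of all genes was -0.09. The growth hormone list was bright, with group means of 10.3 to 10.6, where the median of the brighter part was 0.04. Without Het_control 2 the medians were -0.006, -0.19, -0.03 and 0.02, so that only the growth hormone list moved further from 0. In it, the growth factor receptor gene Egfr read -0.76 (SE 0.21, limma adjusted p = 0.375), -0.78 without Het_control 2. The female-biased transcription factor gene Cux2 read 10.02, 9.49, 9.93 and 9.26 in WT_control, 9.94, 10.15, 10.42 and 10.44 in WT_HFD, 10.27, 10.13, 10.21 and 9.88 in Het_control and 10.27, 9.84, 9.82 and 9.86 in Het_HFD. Its interaction was -0.74 (SE 0.23, adjusted p = 0.401), with a wild-type diet difference of 0.57 and a heterozygous one of -0.18. Of 14 genes 2 were lower at an unadjusted p under 0.05 (3.97% of all genes were), and 3 without Het_control 2, when the cytokine signalling inhibitor Socs2 (-0.83) joined them.

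**Figure D5:**
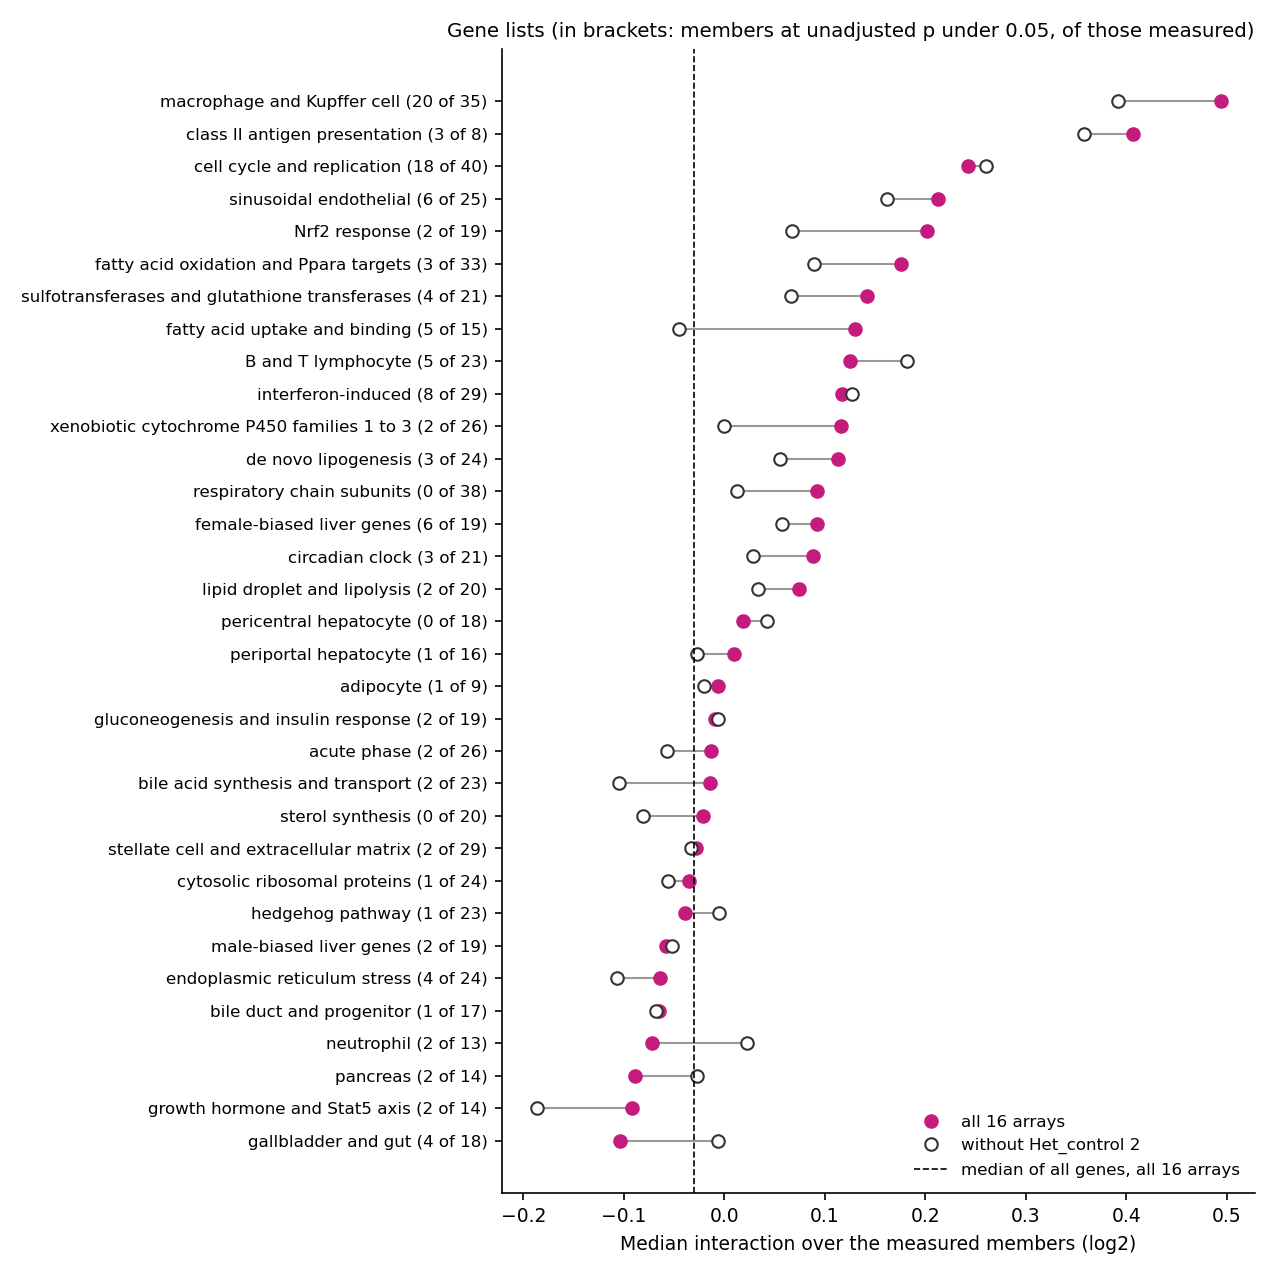
Median interaction (log2) of each gene list of 8 or more members, with all 16 arrays (filled) and without Het_control 2 (open); the dashed line is the median of all genes and brackets give the members at an unadjusted p under 0.05. The macrophage list lies highest at 0.49 and 0.39, and the hedgehog list lies near the median of all genes.

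The hedgehog pathway itself gave a median of -0.04 over 23 genes (-0.006 without Het_control 2), beside -0.03 over all genes. Ligands read 0.10 (Shh), -0.17 (Ihh) and -0.06 (Dhh), the receptor Ptch1 -0.01 and the transducer Smo -0.18. The decoy receptor Hhip read 0.34 (SE 0.16, limma adjusted p = 0.610), and 0.22 without Het_control 2. It was the only 1 of the 23 at an unadjusted p under 0.05, which 8.13% of all genes reached. The co-receptor Gas1, at 0.27, took its place without that array, at 0.36. Gli2 read 7.58, 7.57, 7.54 and 7.58 in WT_control, 7.40, 7.54, 7.57 and 7.54 in WT_HFD, 7.57, 8.14, 7.501 and 7.59 in Het_control and 7.61, 7.46, 7.495 and 7.57 in Het_HFD. All arrays but Het_control 2 lay in a narrow range. The interaction was -0.11 (SE 0.15, 95% interval -0.42 to 0.20, adjusted p = 0.784), or 0.03 without Het_control 2. As the deleted part is not given, this probe set does not check the genotype. The target gene Gli1 read 0.02 (SE 0.09, interval -0.16 to 0.21, adjusted p = 0.925).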

How the data were processed

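Total RNA of 16 livers was measured on Affymetrix MoGene 1.0 ST arrays. The deposited values are log2 levels of probe sets, which the authors computed by RMA (Affymetrix Expression Console, as the submitters' processing notes name it); no source used here gives versions or a genome build. RMA gives the single probes of all arrays 1 intensity distribution, which removes a shift common to all transcripts. The gene values used here still differed in spread, with an interquartile range of 1.95 in Het_control 2 and 2.40 to 2.60 elsewhere. Of 35556 probe sets, 21789 carried 1 gene symbol, 1621 several and 12146 none, and only the first kind was used, 1 probe set for each of 19938 genes (999 genes had more than 1). Symbols were updated through RefSeq (GRCm38.p6, 19856 genes matched).

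Limma 3.58.1 in R 4.3.3 (lmFit, eBayes) was fitted to the 4 group means of all 16 arrays, and the two-sided interaction p was adjusted over all genes by the Benjamini-Hochberg method, with a threshold of 0.05. The fit was tested on simulated data. Statmod 1.5.0 served the random block. Alternatives were each array left out, array weights, trend and robust moderation, quantile and interquartile range scaling, all probe sets, the brighter part of the genes and the title number as a block; leaving out each shared title number was added after the data were seen. Named genes were Gli2, Gli1, the 10 smallest p per direction, the 5 largest interactions per direction at an unadjusted p under 0.05, the 10 smallest p without Het_control 2, 20 genes named earlier for diet in heterozygotes and 2 per list discussed, leaving out 2900 predicted, clone and receptor family symbols. The lists discussed were the 4 with the highest and the 4 with the lowest medians of those with at least 8 members, and the hedgehog pathway. These rules, the members and the 34 lists were chosen with earlier results of these data known. RefSeq promoter windows matched 45 of the 58 named genes. The number of arrays limits the precision.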

Additional observations from a re-analysis of the deposited data

Results flagged for a closer look

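Single arrays lay far from the other 3 of their group in 20 of 268 groups of 4 values examined, where chance gives about 1 in 20. Het_control 2 was the distant array in 6 of them. It read 8.14 for Gli2 and 8.53 for the chymotrypsin gene Ctrb1, both high, and 8.21 for Fabp7, 8.25 for Ly86 and 9.71 for Cd74, all low, and its mean over the pancreas genes was high at 7.90. Fabp7 had distant arrays in both wild-type groups too, WT_control 4 at 10.1 and WT_HFD 4 at 10.4, so its interaction rests on uneven groups. Het_HFD 2 was high for H2-DMa at 9.87 and for the mean of the class II genes at 9.94.

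Among the rest, Emp3 was high in WT_control 4 at 9.64, Cdh5 was high in WT_control 4 at 10.6, and Hinfp was high in WT_control 1 at 8.59. Het_control 3 was high for Fam214a at 11.3 and for Rgs16 at 13.3. Het_HFD 4 was low for the cytochrome P450 gene Cyp3a16 at 10.8, WT_control 3 low for Fabp5 at 10.5, and Het_HFD 1 high for Cux2 at 10.3. In list means, WT_control 2 stood apart at 10.5 for growth hormone and Stat5 genes and WT_control 1 at 7.67 for gallbladder and gut genes.

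The genes Emp3 (0.61), Themis2 (0.63), Fam214a (-0.53) and Mylk (-0.35) had every array of the high-fat groups moved one way in heterozygotes and the other way in wild type. The values are their interactions, which were tested and had limma adjusted p of 0.240, 0.240, 0.240 and 0.242.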

How the results depend on the processing

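Limma called 0 genes with all 16 arrays and in each fit that left out 1 array. Array weights called 1 gene, Fabp7 (1.23, adjusted p = 0.00364), with a weight of 0.0698 for Het_control 2. The title number as a random block called 2, Emp3 (0.64) and Ms4a8a (0.58), both at adjusted p = 0.0433, with a block correlation of -0.37. Leaving out title number 30 called 3 and gave a macrophage median of 0.64. The counts at an unadjusted p under 0.05 were 829 higher and 792 lower. The title number block gave 1533 and 2175. Lower genes numbered 1817 over all probe sets, 304 in the brighter part of the genes, and 450 and 460 without title numbers 39 and 42. With 1 array left out the higher count ran from 655 to 1434 and the lower from 548 to 1458, both highest without Het_control 4. Gli2 turned to 0.078 with array weights and 0.0090 without title number 55, and ran from -0.18 to 0.035 with 1 array left out, above 0 without Het_control 2. Gli1 ran from -0.016 to 0.085, below 0 without Het_control 3. Of 1724 named gene values under alternatives, 1714 kept their sign and their side of the threshold. The cause of these changes was not tested. No paired analysis was possible because the groups share fewer than 2 title numbers: only 46 is held by arrays of more than 1 group, WT_control 1 and WT_HFD 2. With 4 arrays per group, values near 0 are bounded only by their intervals.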

Other observations

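Further immune genes had interactions above 0. Of 29 interferon-induced genes 27 did, with a median of 0.12 (0.13 without Het_control 2). At an unadjusted p under 0.05, 8 were higher and 0 lower, or 7 and 0 without that array. Of all genes 42.5% were above 0 and 4.16% higher at that p. The list was bright, and in the brighter part of all genes 6054 of 9969 were above 0 and 6.29% higher. The antiviral enzyme gene Rsad2 read 0.85 (SE 0.21, 0.71 without Het_control 2) and the chemokine gene Cxcl10 0.84 (SE 0.26, 0.77). Of 23 B and T lymphocyte genes 5 were higher, and 10 without Het_control 2, with a median of 0.13 and 0.18. The shares of all genes that were higher were 4.16% and 4.5%. The interleukin 7 receptor gene Il7r read 0.50 (SE 0.13) and the T cell receptor chain gene Cd3g 0.65 (SE 0.19).

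Lipid handling gave a mixed picture. Of 15 genes of fatty acid uptake and binding 5 were higher, both ways, while the list's median was 0.13 and turned to -0.05 without Het_control 2. Beside Fabp7 and Cd36 these were the lipoprotein receptor Vldlr (0.62), the lipase Lpl (0.45) and Cav1 (0.28). For fatty acid oxidation the median was 0.18, or 0.09 without Het_control 2, and 3 of 33 genes were higher. Among them were the pyruvate dehydrogenase kinase gene Pdk4 (0.97, SE 0.28) and the thioesterase gene Acot2 (0.99, SE 0.28). This list was bright, with group means of 11.4 to 11.7, and the median of the brighter part of all genes was 0.04. With quantile scaling the list's median was 0.08 and with interquartile range scaling -0.01. The brighter part then read -0.005 and -0.03. Of 24 endoplasmic reticulum stress genes 4 were lower and 0 higher, with the disulfide isomerase gene Pdia6 at -0.40 (SE 0.12), and without Het_control 2 there were 3. No gene of these lists passed the limma adjusted threshold, and the shares of all genes at an unadjusted p under 0.05 were 4.16% higher and 3.97% lower.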
